A study of Homo sapiens with 6 samples.

Results

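The AP-1 family genes FOS, FOSB, FOSL1, FOSL2, JUN, JUNB, JUND and ATF3 were examined for open chromatin in K562, an established human line derived from chronic myelogenous leukaemia, whose cell type the labels give as lymphoblast. The series addresses how SLFN11 shapes chromatin during replication stress. ATAC-seq, which reads open DNA through the cuts and tags of a transposase, gave the measurements. Members were the intervals of the 6 deposited peak lists that lay within 2 kb of 9 given hg19 start sites of these 8 genes, ATF3 having an upstream and a downstream start. Merged over libraries, they made 7 of 17466 regions.

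The 6 libraries came from 3 gene-modified lines. The wild-type line overexpressed SLFN11, a protein of the Schlafen family recruited to replication forks under stress. The E669Q line overexpressed SLFN11 with a substitution in its ATPase domain, and the vector line was the control. Each line had 1 library with 1000 nM camptothecin (CPT) for 4 h and 1 with DMSO, for which the labels give no time. CPT traps topoisomerase I on DNA. Since each group holds a single library, the spread between replicates is unknown, and a comparison within a line sets single libraries side by side. The labels do not say whether a line was 1 clone or a pool. The lines were not checked against marker genes, because no hg19 annotation was used.

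AP-1 is a family of dimeric transcription factors in which a FOS-type protein pairs with a JUN-type protein, or JUN-type proteins pair with each other, through leucine zippers. FOS, FOSB, JUN, JUNB and ATF3 are immediate early genes, whose transcription rises within minutes to hours of growth factor or stress signals without new protein synthesis, and their promoters are often open before induction. JUND is expressed more constantly, FOSL1 and FOSL2 follow later, and ATF3 is a stress-induced relative in the same basic leucine zipper class.

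The promoter sequences below are shown because most summits lay at or just upstream of the starts. JUN and JUND were the JUN-type promoters listed most often, FOSL2 and FOS were the FOS-type promoters listed in more than 1 library, and JUNB was listed in none. Each is the 250 bases before the RefSeq start on GRCh38.p14, 5′ to 3′ on the strand of the gene. The RefSeq start may not be the same base as the hg19 start site used for the intervals. Capitals mark TGACGTCA (the cyclic AMP response element), TGACATCA (its variant known from the JUN promoter) and TGACGT (the core, which the full element contains), on either strand.
JUN, chr1:58784048-58784297, minus strand: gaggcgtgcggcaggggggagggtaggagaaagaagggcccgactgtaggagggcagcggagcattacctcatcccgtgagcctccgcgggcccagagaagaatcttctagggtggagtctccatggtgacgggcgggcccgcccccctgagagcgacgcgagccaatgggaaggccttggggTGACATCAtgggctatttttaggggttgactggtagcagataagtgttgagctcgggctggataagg
JUND, chr19:18281623-18281872, minus strand: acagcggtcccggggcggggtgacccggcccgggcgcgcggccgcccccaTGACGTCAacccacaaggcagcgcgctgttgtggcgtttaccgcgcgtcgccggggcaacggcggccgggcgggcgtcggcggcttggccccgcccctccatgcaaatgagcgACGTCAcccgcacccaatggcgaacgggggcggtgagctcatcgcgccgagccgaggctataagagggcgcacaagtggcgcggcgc
FOSL2, chr2:28392608-28392857, plus strand: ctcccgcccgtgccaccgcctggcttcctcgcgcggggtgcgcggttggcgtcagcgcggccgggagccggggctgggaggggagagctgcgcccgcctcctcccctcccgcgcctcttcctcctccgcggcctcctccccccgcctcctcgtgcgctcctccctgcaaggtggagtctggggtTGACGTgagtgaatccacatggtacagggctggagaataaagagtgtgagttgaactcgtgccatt
FOS, chr14:75278578-75278827, plus strand: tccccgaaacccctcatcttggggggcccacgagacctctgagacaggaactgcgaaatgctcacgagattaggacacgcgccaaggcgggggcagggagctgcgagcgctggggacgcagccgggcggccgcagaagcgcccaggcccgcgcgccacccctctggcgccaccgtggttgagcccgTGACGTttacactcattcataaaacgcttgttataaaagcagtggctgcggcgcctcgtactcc
JUNB, chr19:12791236-12791485, plus strand: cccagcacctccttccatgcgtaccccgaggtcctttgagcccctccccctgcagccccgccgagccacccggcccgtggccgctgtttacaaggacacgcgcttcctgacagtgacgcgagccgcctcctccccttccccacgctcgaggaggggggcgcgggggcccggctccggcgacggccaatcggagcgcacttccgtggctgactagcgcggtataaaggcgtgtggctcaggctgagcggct
The table held windows for 7 of the 8 genes, and FOSL1 was not matched. The window of the downstream ATF3 start is not shown, because the ATF3 starts lie 43294 bp apart in the hg19 rule and 49611 bp apart in the table.

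The core TGACGT was present in 4 of the 7 matched genes, counted in the first window of each, and in 7.10% of all 35116 RefSeq windows. It began at position -64 from the start in FOS, at -60 in FOSB and at -66 in FOSL2. In JUND it lay inside a full TGACGTCA that began at -200, and again, on the other strand, at -87. TGACGTCA occurred in 1.65% of all windows. TGACATCA was in 2 of the 7, beginning at -67 in JUN and at -123 in the first ATF3 window, and occurred in 2.37% of all windows. The AP-1 site itself, TGANTCA, was in 0 of the 7 windows and in 6.57% of all windows. CCAAT was in 4 of the 7, against 32% of all windows. It lay at -87 in JUN, -67 in JUNB, -74 in JUND and, on the other strand, -25 in the first ATF3 window. TATAA was also in 4 of the 7, at -33 in FOS, -30 in FOSB, -31 in JUNB and -29 in JUND, against 18.9% of all windows. The windows were rich in GC, with 74.8% in JUND, 70.8% in JUNB, 69.6% in FOSL2, 65.6% in FOSB, 64.8% in FOS and 62.0% in JUN, against a median of 58.0% over all windows. The first ATF3 window stood apart, with 49.2% GC and 4 CG dinucleotides, where JUND had 40 and the median window 11. This is not a window of the downstream ATF3 start, the one listed in the libraries, so it does not describe that promoter. These matches describe letters, not bound sites.

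The lists differed in depth and length, and both bear on whether a start site was listed at all. Depth recovered from the deposited fold and p-values, relative to the vector DMSO library, was 1.09 for wild-type CPT, 1.72 for wild-type DMSO, 2.22 for E669Q CPT, 1.33 for E669Q DMSO, 1.09 for vector CPT and 1.00 for vector DMSO. In the same order the lists held 5562, 11651, 12337, 8365, 5806 and 5246 intervals. Median summit pileups, the number of overlapping fragments at a peak's highest point, were 9 to 12.

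JUN and the downstream ATF3 start were open in all 6 libraries, and JUND in 5. FOSL2 was listed in 4 libraries, FOS in 2, FOSB and FOSL1 in 1 each, and JUNB and the upstream ATF3 start in none. Of the 17466 merged regions, 12.3% were listed in all 6 libraries. By library, 3 of the 9 start sites were listed for wild-type CPT, 5 for wild-type DMSO, 6 for E669Q CPT, 5 for E669Q DMSO, 2 for vector CPT and 4 for vector DMSO. The share of all merged regions in those lists was 31.4%, 65.7%, 69.2%, 46.9%, 32.7% and 29.7%, in the same order. Every merged region is in at least 1 list by construction, whereas JUNB and the upstream ATF3 start are in none. The like base for these shares is therefore the 7 member regions, not the 9 start sites. The most sites were listed in the deepest library, and the vector CPT library, with fewest sites, was not the shallowest. When every list was cut to its 5246 strongest intervals, the counts were 2, 3, 4, 4, 2 and 4, in the same order. That is the full length of the vector DMSO list, so its count could not change. FOSB and FOSL1 then dropped out of the E669Q CPT list, JUND out of the wild-type CPT list, FOS and FOSL2 out of the wild-type DMSO list, and FOSL2 out of the E669Q DMSO list. JUN and downstream ATF3 remained listed in all 6 libraries at this length.

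**Figure D1:**
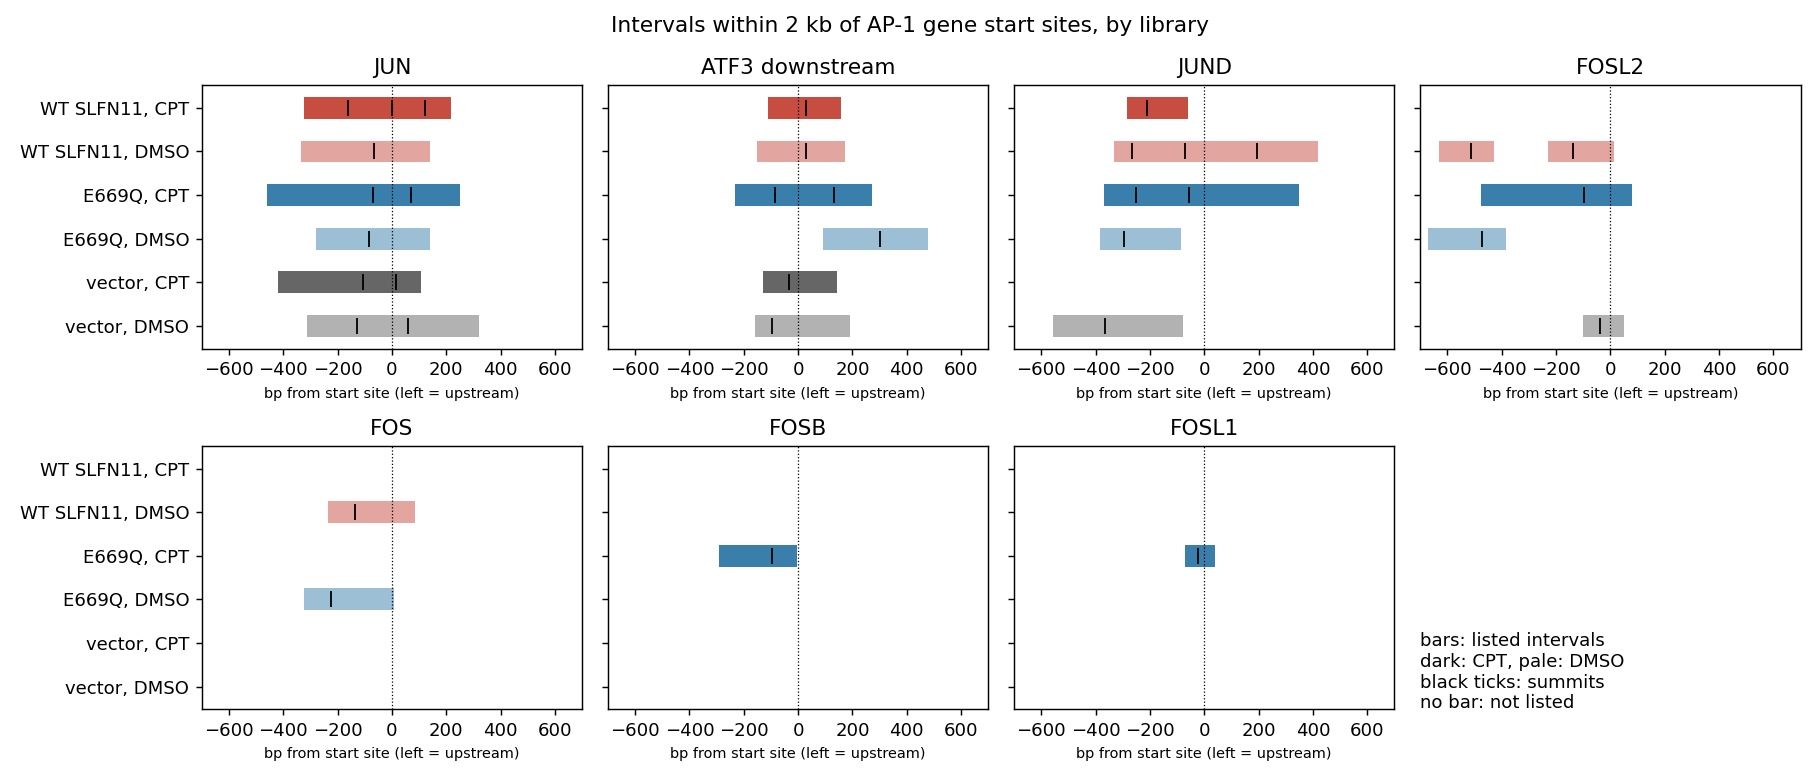
Listed intervals within 2 kb of 7 start sites, as bars by distance from the start (bp, upstream to the left), with summits as black ticks, for the 6 libraries from wild-type SLFN11 with CPT at the top to vector with DMSO at the bottom. JUN and downstream ATF3 have a bar in all 6 libraries, whereas FOS has bars in the wild-type and E669Q DMSO libraries alone.

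JUN, the founding JUN-type subunit, had the highest scaled level of the 8 genes in each library. Its summit pileup was 17 fragments in wild-type SLFN11 with CPT and 30 with DMSO, 44 in E669Q with CPT and 19 with DMSO, and 22 in vector with CPT and 17 with DMSO. Divided by relative depth, these became 15.6 in wild-type with CPT (95% counting interval 9.08 to 24.9), 17.4 with DMSO (11.8 to 24.9), 19.8 in E669Q with CPT (14.4 to 26.6), 14.2 with DMSO (8.57 to 22.2), 20.2 in vector with CPT (12.7 to 30.6) and 17 with DMSO (9.90 to 27.2). The scaled levels lay between 14.2 and 20.2 and their intervals all overlapped. Such intervals are exact Poisson intervals and cover counting error only. In a bulk library, fewer cells with an open site and less opening in each cell cannot be told apart.

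The authors' fold over local background at JUN was 5.96 in wild-type with CPT and 8.55 with DMSO, 10.37 in E669Q with CPT and 7.50 with DMSO, and 8.15 in vector with CPT and 6.63 with DMSO. The −log10 q was 6.91 and 17.56 in the wild-type CPT and DMSO libraries, 29.24 and 10.32 in the E669Q CPT and DMSO libraries, and 12.54 and 7.98 in the vector CPT and DMSO libraries. JUN thus stood in the top 1.8% of the E669Q CPT list by p-value and in the top 23.0% of the wild-type CPT list. In the wild-type CPT list downstream ATF3 stood higher, at 18.1%, with fold 7.11 and −log10 q 7.57. A segment of 388 bp, from 59249677 to 59250064 on chromosome 1 (hg19), was shared by all 6 JUN intervals and spans the start at 59249785. The 11 JUN summits lay from -163 to 123 bp of the start.

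JUND, the most constantly expressed JUN-type gene, had scaled levels of 9.17 in wild-type SLFN11 with CPT (4.40 to 16.9), 11 with DMSO (6.64 to 17.2), 13.1 in E669Q with CPT (8.75 to 18.8), 12.0 with DMSO (6.85 to 19.5) and 8.0 in vector with DMSO (3.45 to 15.8). The pileups behind them were 10, 19, 29, 16 and 8 fragments. The intervals overlapped in all 5 libraries, and JUND was not listed in vector with CPT. In the wild-type CPT library it barely entered the list, with fold 3.89 and −log10 q 2.09, against a lowest listed value of 2.00, and stood at 94.7% of the list by p-value. In vector with CPT, a pileup of 12 would have been needed at the highest JUND background, that of E669Q with CPT, scaled to that library. This allows a scaled level of up to 10.1, above the 8.0 of vector with DMSO. At the lowest background of the vector CPT list, 5 fragments would have been enough, which allows up to 3.68, below 8.0. The local JUND background in that library is unknown. Before division by depth, the JUND background was 4.67 fragments in E669Q with CPT and 0.628 in vector with DMSO. The relative depths of these libraries were 2.22 and 1.00. A segment of 203 bp, 18392516 to 18392718 on chromosome 19, was common to the 5 JUND intervals and lies upstream of the start at 18392432.

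JUNB, which encodes the JUN-type protein that is a weaker activator than JUN in many settings, was not listed within 2 kb of its start at 12902310 on chromosome 19 in any library. At the lowest background of each list, 4 to 6 fragments would have been enough for an entry, which corresponds to scaled levels of at most 2.25 to 3.68. A higher local background would raise those limits, and the caller's minimum width also applies. JUNB was thus not detected at this depth, which does not show that it was closed.

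ATF3 was listed at its downstream start, 212781970 on chromosome 1, in every library, and in none at its upstream start, 212738676. At the downstream start the pileups were 14 in wild-type SLFN11 with CPT, 19 with DMSO, 20 in E669Q with CPT, 11 with DMSO, 11 in vector with CPT and 8 with DMSO. The scaled levels were 12.8 in wild-type with CPT (7.02 to 21.5), 11 with DMSO (6.64 to 17.2), 9.01 in E669Q with CPT (5.50 to 13.9), 8.24 with DMSO (4.11 to 14.7), 10.1 in vector with CPT (5.05 to 18.1) and 8.0 with DMSO (3.45 to 15.8). By scaled level the CPT library was the higher in each line, by less than the counting intervals. By the authors' fold the wild-type line went the other way, with 7.11 with CPT and 7.94 with DMSO. The authors' fold was highest in wild-type with DMSO, at 7.94, and lowest in vector with DMSO, at 5.74. The 6 intervals shared 53 bp, 212782062 to 212782114, just downstream of the start. The E669Q DMSO summit, 300 bp downstream, lay farther from the start than the other 6 ATF3 summits.

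FOS, the founding FOS-type gene and a classic immediate early gene, was listed in 2 libraries, both treated with DMSO and both from SLFN11 lines. In wild-type SLFN11 with DMSO the interval ran from 75745246 to 75745566 on chromosome 14, with a pileup of 13, fold 6.03 and −log10 q 6.25. In E669Q with DMSO it ran from 75745159 to 75745490, with a pileup of 12, fold 6.99 and −log10 q 7.05. They overlapped by 245 bp, and their summits lay upstream of the start, at -136 bp in wild-type and -225 bp in E669Q. The scaled FOS levels were 7.55 in wild-type with DMSO (4.02 to 12.9) and 8.99 in E669Q with DMSO (4.64 to 15.7). The E669Q over wild-type ratio was 1.19 (0.497 to 2.83).

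The libraries that did not list FOS allow a scaled level of up to 5.50 in wild-type with CPT, 4.05 in E669Q with CPT, 5.52 in vector with CPT and 6.0 in vector with DMSO, at the highest FOS background scaled to each. In vector, neither treatment listed FOS, so no ratio could be formed.

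FOSL2, a FOS-type gene without a strong activation domain, was listed in wild-type SLFN11 with DMSO, E669Q with CPT, E669Q with DMSO and vector with DMSO. Its scaled levels were 5.81 in wild-type with DMSO (2.78 to 10.7), 5.86 in E669Q with CPT (3.12 to 10.0), 6.74 in E669Q with DMSO (3.08 to 12.8) and 5.00 in vector with DMSO (1.62 to 11.7), on 10, 13, 9 and 5 fragments. These levels did not differ beyond counting error, and the vector DMSO entry was weak, with −log10 q 2.29. No segment was common to the 4 libraries. The FOSL2 summits fell into an upstream place, at -514 in wild-type with DMSO and -472 in E669Q with DMSO, and a place near the start, at -138 in wild-type with DMSO, -98 in E669Q with CPT and -38 in vector with DMSO. The E669Q DMSO level came from the upstream place, and the levels of the other listing libraries from near the start. The libraries that did not list FOSL2 would have needed 7 fragments. This allows up to 5.50 in wild-type with CPT and 5.52 in vector with CPT, so these limits lie close to the FOSL2 levels seen elsewhere.

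FOSB and FOSL1, FOS-type genes, were each listed in E669Q with CPT alone, the deepest library. FOSB had an interval from 45970961 to 45971250 on chromosome 19, ending just before its start at 45971253, with 11 fragments, fold 4.72, −log10 q 3.84 and a scaled level of 4.95 (2.47 to 8.87). FOSL1 had an interval of 112 bp, 65667958 to 65668069 on chromosome 11, across its start at 65667997, with 9 fragments, fold 5.98, −log10 q 5.16 and a scaled level of 4.05 (1.85 to 7.70). Both stood in the weaker part of that list, at 79.8% for FOSB and 60.6% for FOSL1 by p-value. The other 5 libraries allow FOSB levels of up to 4.06 to 6.0 and FOSL1 levels of up to 2.9 to 4.00.

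**Figure D2:**
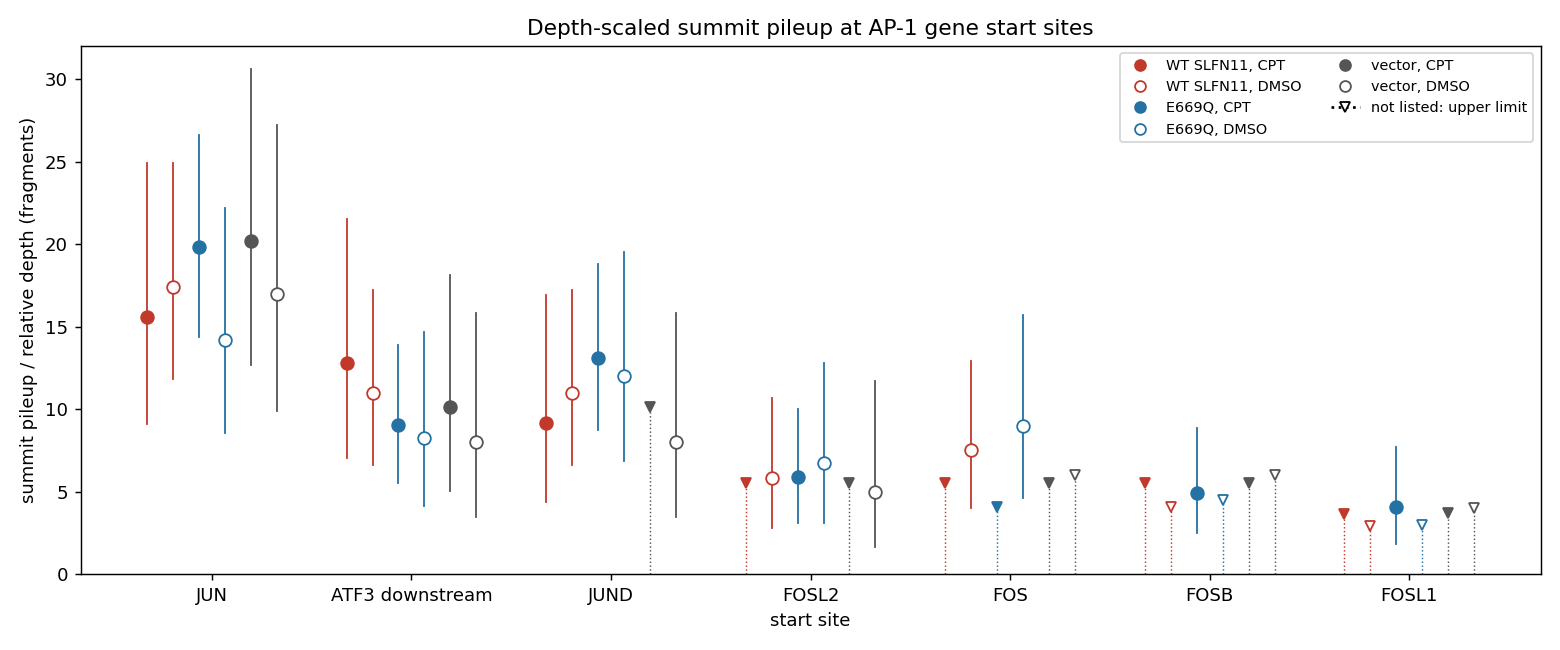
Summit pileup divided by relative depth (fragments, vertical axis) at 7 start sites, with exact 95% counting intervals; filled circles are CPT, open circles DMSO, and triangles on dotted lines are upper limits where a start site was not listed. JUN lies at 14.2 to 20.2 in the 6 libraries, above the FOS, FOSL2, FOSB and FOSL1 values of 4.05 to 8.99.

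The order of the median scaled levels over the libraries that listed a site was JUN (17.2), JUND (11), downstream ATF3 (9.56), FOS (8.27), FOSL2 (5.83), FOSB (4.95) and FOSL1 (4.05). Neighbours in this order had overlapping counting intervals in the libraries that listed both. Medians over listed libraries leave out the libraries in which a site fell short of the list. Scaled levels include the local background, and the order differs by the authors' fold. Fold was 3.89 to 5.86 at JUND, 5.74 to 7.94 at downstream ATF3 and 6.03 to 6.99 at FOS.

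The CPT over DMSO ratio of scaled pileups could be formed from listed values at 3 start sites in the wild-type SLFN11 line. It was 0.894 for JUN (0.463 to 1.67), 0.831 for JUND (0.345 to 1.88) and 1.16 for downstream ATF3 (0.540 to 2.45). In the E669Q line it was 1.39 for JUN (0.796 to 2.53), 1.09 for JUND (0.573 to 2.15), 1.09 for downstream ATF3 (0.499 to 2.53) and 0.868 for FOSL2 (0.343 to 2.30). In the vector line it was 1.19 for JUN (0.603 to 2.39) and 1.26 for downstream ATF3 (0.463 to 3.62). Each ratio took the highest summit of each library, and these summits can lie at different positions. In the E669Q line the FOSL2 summit was at -98 bp with CPT and -472 bp with DMSO, so its ratio compares separate places. Downstream ATF3 had -86 bp with CPT and 300 bp with DMSO, and JUND -56 and -295 bp. All 9 exact conditional binomial intervals included 1, so no CPT difference at these start sites exceeded counting error. Over all shared intervals the interval excluded 1 in 1.83% in the wild-type line, 2.46% in the E669Q line and 0.670% in the vector line. The median ratio over all shared intervals was 0.987 in the wild-type line, 0.842 in the E669Q line and 0.973 in the vector line. The 4 E669Q ratios from listed values lay above the lower E669Q median, but the interval of each included that median. Among the limits in that line, FOS (at most 0.451) lay below it, and FOSB (at least 1.10) and FOSL1 (at least 1.35) above. The intervals around these limits, given below, also include that median, and a limit is not an observed ratio. The direction turned with the measure at several sites. By the authors' fold the ratio was 0.896 for downstream ATF3 in the wild-type line, 0.958 for JUND and 1.16 for FOSL2 in the E669Q line. With libraries scaled by the median of regions open in all 6, it was 1.03 for JUN in the wild-type line and 1.01 for FOSL2 in the E669Q line.

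JUN and downstream ATF3 had a ratio in all 3 lines, so their CPT and DMSO libraries could be paired by line. The mean log2 ratio was 0.19 ± 0.32 for JUN (SD, n = 3 lines, higher with CPT in 2 of 3), with a two-sided exact sign-flip p of 0.5. It was 0.23 ± 0.11 for downstream ATF3 (SD, n = 3 lines, higher in 3 of 3), with an exact sign-flip p of 0.25, the smallest that 3 lines allow. Adjusted by Benjamini-Hochberg over the 4 regions tested this way, the exact p was 0.667 for JUN and 0.5 for ATF3. By the authors' fold the means were 0.08 ± 0.53 for JUN and 0.05 ± 0.23 for downstream ATF3, each higher in 2 of 3 lines. The lines differ in genotype, so the SD covers lines, not replicates of a group.

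Where a site was listed in 1 treatment alone, the ratio is a limit. For FOS it was at most 0.729 in the wild-type line (0.227 to 2.05) and at most 0.451 in the E669Q line (0.168 to 1.17). Both FOS intervals include 1, but they surround a limit and not an observed CPT count. They therefore do not show whether FOS changed. The limits use the highest background of the site. At the lowest background of each CPT list, the FOS limit was 0.364 in the wild-type line and 0.251 in the E669Q line. For FOSL2 it was at most 0.947 in the wild-type line and at most 1.10 in the vector line, and for JUND at most 1.26 in the vector line. For FOSB it was at least 1.10 (0.374 to 3.63) and for FOSL1 at least 1.35 (0.378 to 6.01) in the E669Q line. Each limit sets a listed library against an unlisted one, so the listed side is high by selection, and the limits are given as a description.

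In terms of listing, CPT lost 2 of 5 listed start sites in the wild-type line (FOS and FOSL2), 1 of 5 in the E669Q line (FOS) and 2 of 4 in the vector line (FOSL2 and JUND). Over all intervals of the DMSO lists, 59.5% were lost in the wild-type line, 19.0% in the E669Q line and 39.5% in the vector line. Gained start sites were 0 of 3 in the wild-type line, 2 of 6 in the E669Q line (FOSB and FOSL1) and 0 of 2 in the vector line, against 15.1%, 45.2% and 45.1% of all intervals in those CPT lists. The member counts, on at most 6 sites, are too small to be set apart from these shares. FOS and FOSL2 were each lost in 2 lines and gained in none, as were 5.39% of all merged regions. No member was gained in 2 lines, against 3.10% of merged regions.

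**Figure D3:**
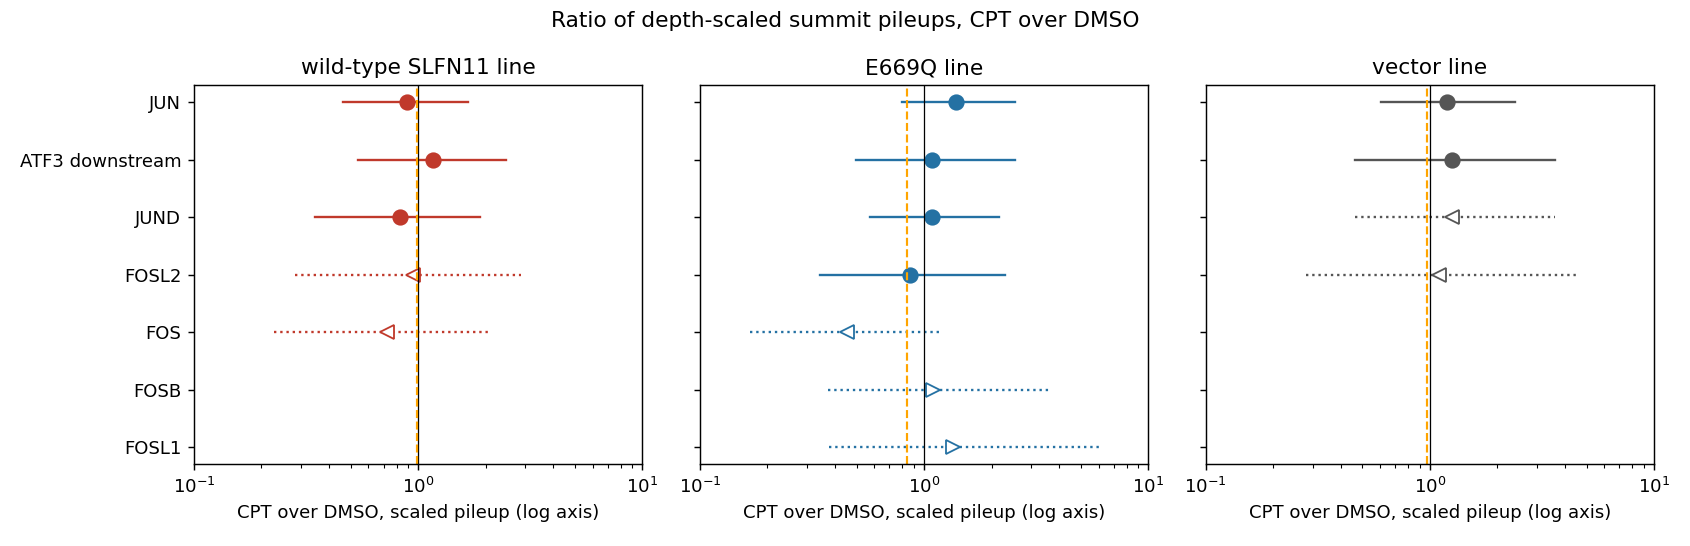
CPT over DMSO ratio of scaled summit pileups (log axis) at 7 start sites in the wild-type SLFN11, E669Q and vector lines, with exact 95% intervals; open triangles pointing left are upper limits, those pointing right lower limits, and the orange dashed line is the median over all shared intervals. The 9 circles, from 0.831 to 1.39, all have intervals that cross 1.

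Between lines, the values at matched treatment were also within counting error. With DMSO, wild-type over vector ratios ran from 1.02 for JUN to 1.38 for JUND and downstream ATF3, and E669Q over vector ratios from 0.837 for JUN to 1.5 for JUND. With CPT, wild-type over vector was 0.770 for JUN (0.384 to 1.52) and 1.27 for downstream ATF3 (0.535 to 3.09), and E669Q over vector was 0.980 for JUN (0.575 to 1.72) and 0.891 for downstream ATF3 (0.407 to 2.06). E669Q over wild-type with CPT was 1.27 for JUN (0.712 to 2.37), 1.43 for JUND (0.675 to 3.28) and 0.702 for downstream ATF3 (0.337 to 1.5), and with DMSO the 5 shared start sites lay between 0.747 for downstream ATF3 and 1.19 for FOS. None of these intervals excluded 1. The median over all shared intervals was 0.816 for E669Q over vector and 0.819 for E669Q over wild-type with CPT, so that JUN lay above both medians, JUND above the second, and the downstream ATF3 ratio lay above the first and below the second. The background share of intervals that did was 1.83% for wild-type over vector and 2.70% for E669Q over vector with DMSO, 2.34% and 5.04% for the same pairs with CPT, and 2.15% and 2.61% for E669Q over wild-type with DMSO and with CPT. Several of these pairs share a library, so their values are not independent. They also take the highest summit of each library, which can lie at different positions. With DMSO, the FOSL2 summit was at -472 bp in E669Q, -138 bp in wild-type and -38 bp in vector. That of downstream ATF3 was at 300, 31 and -97 bp, in the same order.

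Farther out, 12 regions lay between 2 and 20 kb of a start site, of which 2 were listed in all 6 libraries, 6 in 1 library and 10 in neither vector library. Among all merged regions, 12.3% were listed in all 6 libraries, 38.1% in 1 library and 56.2% in neither vector library. By order on the chromosome in RefSeq, the next protein-coding genes are TMED10 and JDP2 for FOS, ERCC1 and RTN2 for FOSB, and CCDC85B and C11orf68 for FOSL1. They are HOOK2 and PRDX2 for JUNB, and NENF and GARIN4 for ATF3. The distances of the regions to these genes were not measured. None of the 12 regions lay around JUN, JUND or FOSL2. Which gene such a region belongs to was not tested.

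The region 19.6 kb upstream of FOS, 75725568 to 75726182 on chromosome 14, was open in all 6 libraries, including those without a FOS promoter interval. Its scaled levels were 11.9 in wild-type SLFN11 with CPT, 12.2 with DMSO, 7.21 in E669Q with CPT, 7.49 with DMSO, 5.52 in vector with CPT and 6.0 with DMSO. The wild-type libraries were the highest at both treatments, but the wild-type over vector ratio was 2.16 with CPT (0.766 to 6.93) and 2.03 with DMSO (0.793 to 6.15), within counting error. Paired by line, its mean log2 CPT over DMSO ratio was -0.07 ± 0.05 (SD, n = 3 lines, lower in 3 of 3), with an exact sign-flip p of 0.25 (adjusted 0.5). The sign turned under both other measures, to 0.11 with the median scaling and 0.07 with the authors' fold.

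The region 15.5 kb downstream of FOS, 75760769 to 75761108, was listed in wild-type SLFN11 with DMSO, E669Q with CPT and E669Q with DMSO, and in neither vector library. Its scaled level was 5.86 for E669Q CPT, 15 for E669Q DMSO and 7.55 for wild-type DMSO, and the authors' fold was 6.78, 11.51 and 6.85 in the same order. The ratio of E669Q with CPT over E669Q with DMSO was 0.391 (0.179 to 0.826), on 13 against 20 fragments. The relative depths of these libraries were 2.22 and 1.33. Of 24 ratios between listed libraries at regions beyond 2 kb, this 1 had an interval that excluded 1. Over all shared intervals the share was 2.46% for this library pair, and from 0.670% to 5.04% over the pairs compared. One such ratio in 24 is too few to be set apart from these shares. With the median scaling, 2 of the 24 excluded 1, and no share over all intervals is given for that scaling. This region is named because its fold of 11.51 was the highest around FOS, and that fold comes from the E669Q DMSO library, so the ratio is a description. In the wild-type line the region was listed with DMSO and not with CPT.

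The region 6.55 kb upstream of the upstream ATF3 start, 212731761 to 212732499 on chromosome 1, was likewise open in all 6 libraries, with scaled levels of 9.17 in wild-type SLFN11 with CPT, 8.71 with DMSO, 6.76 in E669Q with CPT, 5.99 with DMSO, 5.52 in vector with CPT and 7.0 with DMSO. The CPT over DMSO ratio was 1.05 in the wild-type line (0.423 to 2.50), 1.13 in the E669Q line (0.449 to 3.07) and 0.788 in the vector line (0.219 to 2.74). None of these exceeded counting error. Paired by line, the mean log2 ratio was -0.03 ± 0.27 (SD, n = 3 lines), with an exact sign-flip p of 1.00, and its sign turned under both other measures.

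JUNB, without a listed promoter, had a region 14.9 kb downstream, 12917063 to 12917401 on chromosome 19, in E669Q with CPT (fold 6.20) and E669Q with DMSO (fold 5.73), and in no other library. FOSL1 had a region 18.7 kb upstream, with fold 5.72 in wild-type with DMSO, 5.71 in E669Q with CPT and 5.18 in E669Q with DMSO. FOSB had its strongest distal region 17.7 kb downstream, 45988729 to 45989164, in wild-type with CPT alone, with fold 5.86. Beyond 2 kb, 5 regions were listed in wild-type with CPT, 6 in wild-type with DMSO, 8 in E669Q with CPT, 5 in E669Q with DMSO and 2 in each vector library, out of 12. The shares of all merged regions in the same libraries were 31.4%, 65.7%, 69.2%, 46.9%, 32.7% for vector with CPT and 29.7% for vector with DMSO. With every list cut to its 5246 strongest intervals, the intervals within 20 kb, start sites included, numbered 6 in wild-type with CPT, 6 in wild-type with DMSO, 7 in E669Q with CPT, 6 in E669Q with DMSO, 3 in vector with CPT and 6 in vector with DMSO. The 3 DMSO libraries then had the same number, but the vector DMSO list was already of that length and was not cut.

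**Figure D4:**
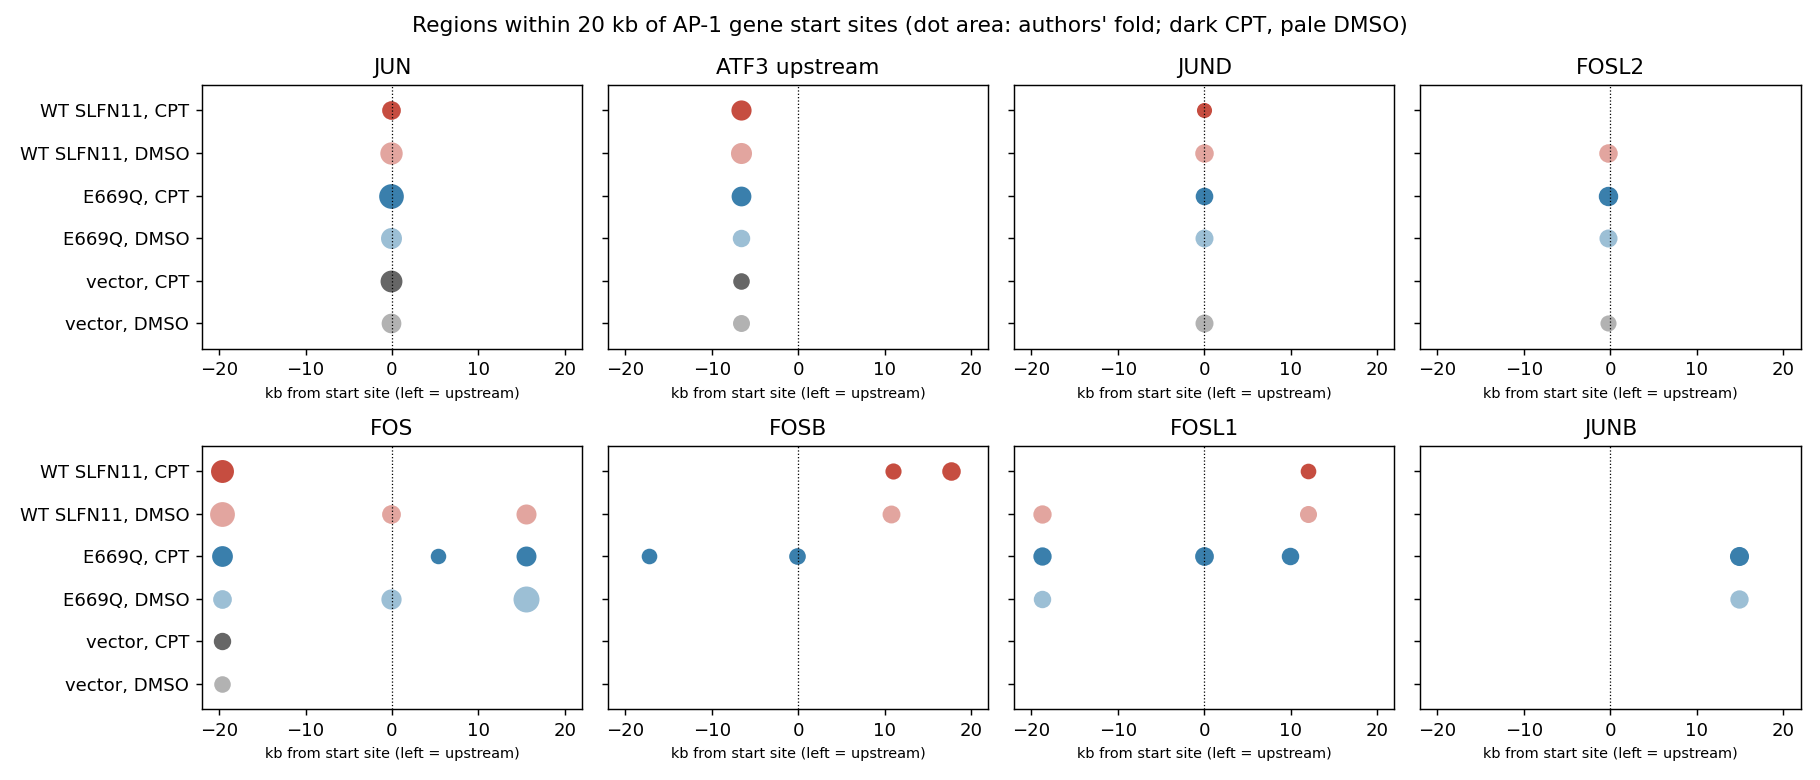
Regions within 20 kb of the start sites (horizontal axis, kb from the start, upstream to the left) for the 6 libraries, with dot area proportional to the authors' fold, dark for CPT and pale for DMSO. The region 19.6 kb upstream of FOS appears in all 6 libraries, and the vector libraries hold 2 regions beyond 2 kb each.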

How the data were processed

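The authors deposited 1 peak list per library on hg19. Per the submitters' processing notes, Trimmomatic 0.39, Bowtie2 2.2.6, SAMtools 1.8, Picard 2.9.2 and MACS2 2.1.2 were named; their roles and settings, the treatment of duplicates and any transposase shift are not given in the sources used here. In the deposited lists each entry carries a fold enrichment at its summit (a ratio over local background), a −log10 p-value, a −log10 q-value, a summit offset and a score. In all entries the score is 10 times the deposited −log10 q, rounded down.

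From these, whole summit pileups and local backgrounds were recovered, assuming the MACS2 formula with a pseudocount of 1, for 98.6% to 99.2% of entries (tolerance 0.001 on the −log10 p scale). Depth was the lowest background divided by the background step. Scaled pileups were divided by depth, and the highest summit within 2 kb of a start was used. Levels have exact Poisson 95% intervals, and ratios exact conditional binomial (Clopper-Pearson) 95% intervals. CPT and DMSO were also paired by line with a two-sided exact sign-flip test of the mean log2 ratio, added after seeing the data, at the 4 regions listed in all 6 libraries. Intervals were matched at an overlap of at least 1 bp. For an unlisted site, the limit is the smallest pileup that would have reached the lowest −log10 p of the list, minus 1. Recovery and ratio scripts were tested on simulated data. Intervals cover counting error only, and PCR copies are not independent molecules.

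The members and lists were chosen with earlier results of these data known. All 8 genes are named whatever their values; regions beyond 2 kb are named when listed in all 6 libraries, when they have the highest fold of their gene, or when gained or lost in 2 lines. A planned list of basic leucine zipper relatives and cell type markers was not counted, because no hg19 annotation was used. Strands came from general knowledge of the genes. Scripts ran in Python 3.11.15 with scipy 1.17.1, numpy 2.4.6, pandas 2.3.3 and, for figures, matplotlib 3.10.9.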

Additional observations from a re-analysis of the deposited data

Results flagged for a closer look

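The number of listed AP-1 start sites moved in different directions after CPT. CPT minus DMSO was -2 for wild-type SLFN11, 1 for E669Q and -2 for vector. The E669Q CPT library was also the deepest. With lists of equal length the E669Q counts were 4 with CPT and 4 with DMSO. The difference between the lines was not tested.

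The CPT over DMSO ratio at JUN lay below 1 with wild-type SLFN11 (0.894) and above 1 for E669Q (1.39) and vector (1.19). At JUND it was 0.831 in the wild-type line and 1.09 in the E669Q line. With libraries scaled by the median of regions open in all 6, JUN in the wild-type line was 1.03, and by the authors' fold JUND in the E669Q line was 0.958. Each counting interval includes 1. At neither gene was a difference between the lines tested.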

How the results depend on the processing

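No replicate numbers link the libraries, and none could be left out within a group of 1. Pairing CPT and DMSO by line gave a mean log2 ratio of 0.189 for JUN and 0.228 for downstream ATF3. It was positive under both other measures, but only 0.0814 for JUN and 0.0484 for downstream ATF3 by the authors' fold. At the region upstream of FOS it was -0.0701, against 0.111 with the median scaling and 0.0701 with the authors' fold, and at the region upstream of ATF3 -0.0324, against 0.149 and 0.0555. These pairings were added after seeing the data, and the cause of the changed signs was not tested. Of 116 alternative values of the start-site ratios, all 116 lay inside the counting interval of the reported value, and 13 fell on the other side of 1 (8 with the authors' fold, 4 with scaling by the median of regions open in all 6 libraries, and 1 with the summit nearest to the start). The 29 values from the 1 kb window could not differ, because every summit lay within 1 kb. The median scaling moves all ratios of a library pair by a common factor. The intervals are wide, so the 116 say little about robustness. The start-site counts moved beyond 1.5 times in 2 cases: wild-type SLFN11 with DMSO held 3 at matched length, where the lists hold fewer intervals, and vector with DMSO held 1 at a −log10 q of at least 5.

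The number of intervals within 20 kb, which was 8, 12, 14, 10, 4 and 6 in wild-type with CPT and DMSO, E669Q with CPT and DMSO, and vector with CPT and DMSO, moved more. At a −log10 q of at least 5 it was 4 in wild-type with CPT, 6 in E669Q with DMSO, 2 in vector with CPT and 1 in vector with DMSO. At a fold of at least 5 it was 5 in wild-type with CPT and 3 in vector with DMSO. At matched length it was 6 in wild-type with DMSO, 7 for E669Q CPT and 6 for E669Q DMSO. It stayed at 6 in vector with DMSO, whose list holds 5246 intervals and was not cut. Within 10 kb it was 4 in wild-type with CPT, 7 in wild-type with DMSO, 9 in E669Q with CPT and 6 in E669Q with DMSO. Within 50 kb it was 19 in wild-type with DMSO, 22 in E669Q with CPT and 7 in vector with CPT.

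With an overlap of at least 50% of the shorter interval, the share of the DMSO list found in the CPT list was 38.1% in the wild-type line, 75.1% in the E669Q line and 55.8% in the vector line, against 40.5%, 81.0% and 60.5% at 1 bp. The exact intervals of FOSL2, FOSB and FOSL1 rest on 5 to 13 fragments, which limits their precision.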
